A study of Mus musculus with 16 samples.

Results

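The 7 genes described here are the receptor Csf1r with its ligands Csf1 and Il34, the receptor chain Csf2ra, the transcription factor gene Spi1 and the macrophage identity genes Adgre1 and Cd68. They were chosen by name from the 13733 genes of a bulk RNA-seq table of mouse knee joint cells, and all 7 were among the 13173 genes that reached 1 CPM (reads scaled to a common library size, TMM-normalized by the authors) in 4 or more libraries. The study asked how the loss of Trem2, a lipid-binding receptor of myeloid cells, changes the response of the joint to an injury that leads to osteoarthritis. Libraries came from the right knee of C57BL/6 wildtype mice (WT) and of Trem2 KO mice (Trem2-/-; C57BL/6J-Trem2em2Adiuj/J, lacking the receptor in all cells), all of them male by the study's methods, either uninjured (D0) or 7 days after rupture of the anterior cruciate ligament by 1 overload of tibial compression (D7), with 4 replicates in each of the 4 groups. Each replicate is treated here as 1 mouse, and since the labels number the replicates without naming animals, the p-values measure the spread between these libraries. Both sources place the injury at 10 weeks of age. The sources differ elsewhere: the study's methods describe cells released from joints by enzymes, whereas 1 label field describes homogenized whole joints of control and T1DM mice at 16 weeks, and the age label reads 16 weeks for all groups. For the release of cells the methods refer to the study's single-cell protocol, in which skin and muscle were removed, carry-over of marrow cells was to be avoided and CD45+ leukocytes were then split from CD45- cells on magnetic beads. Whether either fraction or unsplit cells entered the bulk libraries is not given in the sources used here.

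CSF1R is the receptor tyrosine kinase on which most tissue macrophages, monocytes and osteoclasts depend for survival and growth. Its ligands are CSF1, made by stromal and many other cells, and IL-34, made by fewer cell types. The GM-CSF receptor, whose ligand-binding chain is encoded by Csf2ra, serves granulocytes, monocytes and dendritic cells, and PU.1, encoded by Spi1, is the transcription factor that directs myeloid development and activates the Csf1r gene. Adgre1 encodes F4/80, a surface marker of mature mouse macrophages, and Cd68 encodes a glycoprotein of the endosomes and lysosomes of phagocytes. The joint holds synovial macrophages and bone osteoclasts, and the marrow of the adjoining bones is rich in neutrophils and their precursors.

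Library depth, as reads summed over all genes, ran from 11567073 to 32867818 (median 16399898). The member with the fewest reads was Il34, with 134 reads in its lowest library, and 3 reads corresponded to between 0.101 and 0.250 CPM. Trem2 itself measured 2.51, 4.88, 5.26 and 5.61 CPM in WT D0 mice 1 to 4 and 1.88, 0.948, 2.68 and 1.70 CPM in Trem2-/- D0 mice, so 1 WT mouse lay below 1 knockout mouse. At D7 the values were 15.1, 22.5, 18.9 and 10.7 CPM in WT and 4.13, 4.69, 3.42 and 4.84 CPM in Trem2-/-, with no overlap. Knockout libraries kept Trem2 reads at both times, and Trem2 was lower than in WT in each comparison (log2 fold change -0.98 ± 0.25 SE at D0 and -1.72 ± 0.25 SE at D7). The 12 neutrophil genes, the 10 fibroblast genes and the 6 chondrocyte genes of the marker lists used here all had reads in every library. Such reads do not tell released joint cells from homogenized joints.

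Level and order of the members were compared per kb of exon, since a longer gene yields more reads. Csf2ra led at D0, with 108 ± 19.5 CPM per kb (SD, n = 4) in WT and 117 ± 14.5 in Trem2-/-, and its mice did not overlap those of the next gene in either genotype. Cd68 led at D7, with 81.9 ± 14.8 CPM per kb in WT, where it overlapped Csf2ra (68.5 ± 19.3), and 50.6 ± 2.25 in Trem2-/-, where it did not overlap Csf2ra (37.8 ± 4.02). Cd68, Csf1 and Spi1 could not be ordered at D0, because neighbouring genes overlapped in both genotypes. In WT D7 mice, Csf1, Spi1, Csf1r and Adgre1 followed at 36.5 ± 10.0, 33.4 ± 9.29, 33.0 ± 3.77 and 26.9 ± 4.18 CPM per kb, each overlapping the next. Il34 was last in every group at 6.04 to 8.29 CPM per kb, and it lay apart from Adgre1 above it in every group except WT D0.

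**Figure D1:**
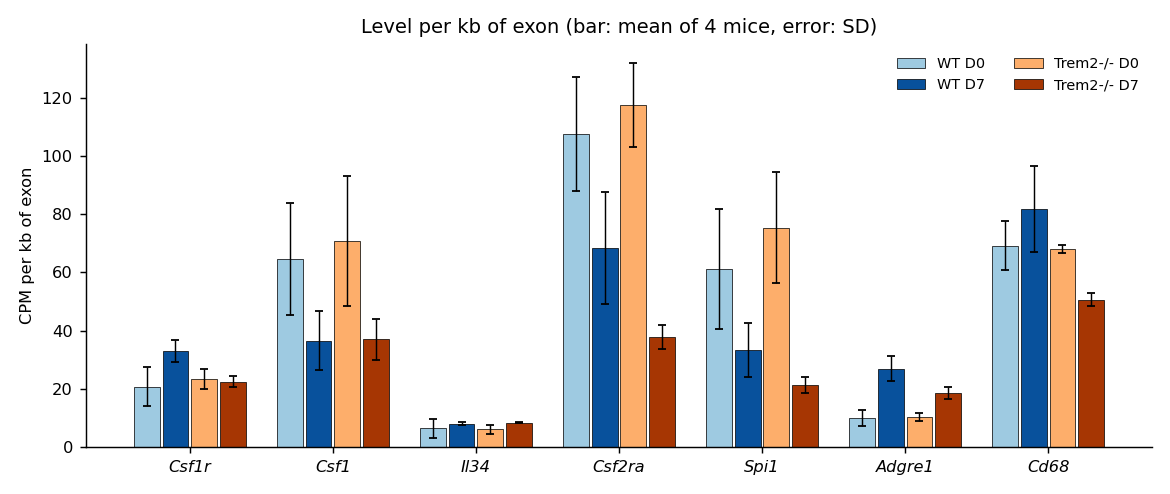
Mean level of each gene in CPM per kb of exon (vertical axis) in the 4 groups (colours), with the SD of 4 mice as error bars. Csf2ra is the tallest bar at D0, Cd68 the tallest at D7, and Il34 the lowest throughout at 6.04 to 8.29 CPM per kb.

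Of the receptor and its ligands, Csf1r (GRCm38 chr18:61100598-61132149, plus strand) rose after injury in WT and showed no such rise in Trem2-/-. In WT D0 mice 1 to 4 Csf1r measured 69.9, 135, 163 and 112 CPM, and in WT D7 mice 204, 196, 204 and 159 CPM. In Trem2-/- mice it measured 151, 120.3, 151 and 114 CPM at D0 and 133, 144, 120.1 and 121 CPM at D7. The WT D7 mice were the highest, above every knockout mouse, and only WT D7 mouse 4 fell below the highest WT D0 mouse; in Trem2-/- the D0 and D7 mice were interleaved. The mean was 119.9 ± 39.4 CPM (SD, n = 4) at WT D0 and 191 ± 21.8 at WT D7, a log2 fold change of 0.72 ± 0.20 SE (adjusted p = 0.0153). In Trem2-/- the means were 134 ± 19.8 and 129 ± 11.3 CPM, a log2 difference of -0.04 with a 95% interval from -0.46 to 0.38. At D7 the knockout mean was 0.678 of the WT mean (log2 fold change -0.55 ± 0.20 SE, unadjusted p = 0.0132, adjusted p = 0.563). Of its 5774 exon bases, 873 (15.1%) also lie in exons of Hmgxb3 on the other strand, and no source used here says whether counting used strand. Hmgxb3 ranged from 25.1 to 38.9 CPM over the 16 libraries and was higher at D7 without overlap in both genotypes. It measured 28.0 to 31.5 CPM at WT D0 and 32.2 to 37.1 at WT D7. In Trem2-/- it measured 25.1 to 31.9 CPM at D0 and 35.8 to 38.9 at D7. Its part in the Csf1r reads was not tested.

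Csf1 (chr3:107741048-107760469, minus strand) fell with injury in both genotypes and did not separate them at either time. WT mice measured 422, 222, 428 and 292 CPM at D0 and 134, 162, 232 and 243 CPM at D7. Trem2-/- mice measured 544, 329, 271 and 354 CPM at D0 and 152, 211, 183 and 238 CPM at D7. WT groups overlapped through D0 mouse 2, whereas every Trem2-/- D7 mouse lay below every Trem2-/- D0 mouse. The injury difference was -0.81 ± 0.26 SE on the log2 scale in WT (adjusted p = 0.0301) and -0.90 ± 0.26 SE in Trem2-/- (adjusted p = 0.00839). Neither injury call held in a fit with a leukocyte score, the mean log2 level of 6 pan-leukocyte genes, as a covariate (-0.57 in WT, unadjusted p = 0.121, and -0.40 in Trem2-/-, unadjusted p = 0.481). At D7 the genotypes differed by 0.04 on the log2 scale, with a 95% interval from -0.50 to 0.59.

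Il34 (chr8:110741829-110805924, minus strand) passed the test in no comparison. WT mice measured 21.2, 6.40, 10.1 and 12.6 CPM at D0 and 16.0, 14.6, 14.9 and 16.6 CPM at D7. Trem2-/- mice measured 10.5, 15.4, 8.59 and 12.8 CPM at D0 and 16.0, 16.5, 15.8 and 16.7 CPM at D7. Uninjured mice were spread out, with a coefficient of variation of 49.99% in WT and 25.0% in Trem2-/-, and injured mice were close together at 6.04% and 2.68%. The injured libraries held 230 to 433 Il34 reads in WT and 200 to 475 in Trem2-/-. Counting error was not separated from the spread between mice. All 4 Trem2-/- D7 mice lay above all 4 Trem2-/- D0 mice (exact permutation p = 0.0286, the smallest that 4 against 4 allows), but the limma difference of 0.46 had an interval from -0.07 to 0.98. Of its exon bases, 4.95% overlap exons of Gm15894 and Gm15895 on the other strand.

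**Figure D2:**
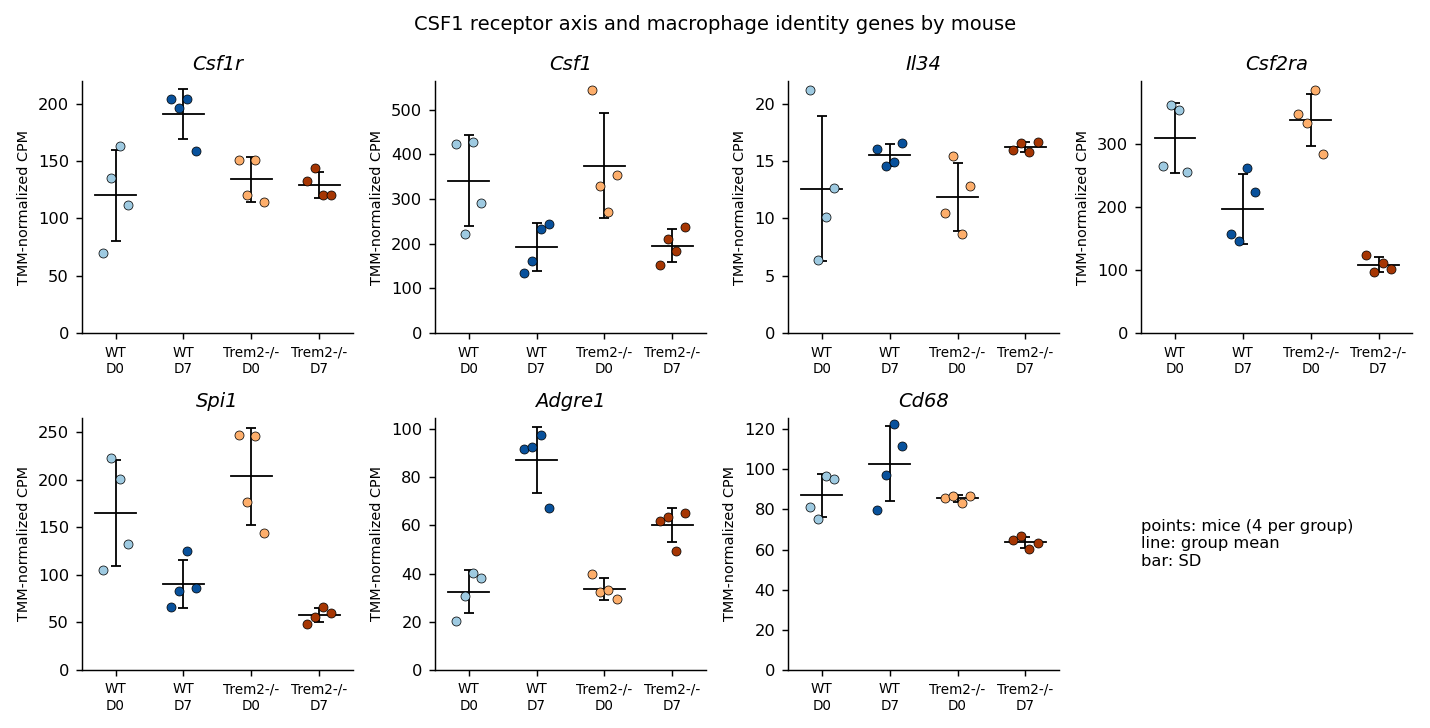
CPM of each gene (vertical axis, from 0) in every mouse of the 4 groups (horizontal axis), with the group mean as a line and the SD as a bar. At D7 the Trem2-/- mice sit below the WT mice for Csf1r, Csf2ra, Spi1, Adgre1 and Cd68 without overlap, and among them for Csf1 and Il34.

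Csf2ra (chr19:61223957-61228429, minus strand) fell with injury in both genotypes, and further in Trem2-/-. WT mice measured 265, 361, 353 and 256 CPM at D0 and 156, 145, 262 and 223 CPM at D7. Trem2-/- mice measured 347, 333, 385 and 284 CPM at D0 and 123, 97.2, 111 and 102 CPM at D7. The WT groups met at mouse 3 of D7, which exceeded mouse 4 of D0, while the Trem2-/- groups were far apart and the highest Trem2-/- D7 mouse was below the lowest WT D7 mouse. The log2 fold change with injury was -0.67 ± 0.18 SE in WT (adjusted p = 0.0139) and -1.63 ± 0.18 SE in Trem2-/- (adjusted p = 1.7e-05), and at D7 the knockout mean was 0.551 of the WT mean (-0.82 ± 0.18 SE, unadjusted p = 0.000373, adjusted p = 0.441). With the leukocyte score as a covariate, the WT injury difference was -0.20 (unadjusted p = 0.254) and no longer called, and that in Trem2-/- was -0.63 (unadjusted p = 0.0340) and still called.

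Spi1 (chr2:91082390-91115756, plus strand) had the same order of groups. WT mice measured 105, 223, 201 and 132 CPM at D0 and 65.7, 82.9, 125 and 86.2 CPM at D7. Trem2-/- mice measured 247, 177, 245 and 144 CPM at D0 and 47.9, 55.5, 65.7 and 60.1 CPM at D7. The lowest WT D7 mouse (65.74 CPM) and the highest Trem2-/- D7 mouse (65.68 CPM) almost touched. The injury difference was -0.84 ± 0.25 SE on the log2 scale in WT (adjusted p = 0.0207) and -1.78 ± 0.25 SE in Trem2-/- (adjusted p = 5.1e-05), and the D7 genotype difference was -0.61 ± 0.25 SE (unadjusted p = 0.0245, adjusted p = 0.615). With the leukocyte score as a covariate both injury calls were lost, the differences being -6.01e-06 in WT and -0.0148 in Trem2-/- (unadjusted p = 0.933). The score includes Rac2 and Ptprc, with which Spi1 ran at a Pearson r of 0.99 each over the 16 libraries. Because the score holds genes this close to Spi1, the fit cannot show whether Spi1 changed apart from leukocyte level. The D7 genotype difference rests on single mice: without WT D7 mouse 3 it was -0.44 (unadjusted p = 0.0949), and without Trem2-/- D7 mouse 1 it was -0.53 (unadjusted p = 0.0683).

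Adgre1 (chr17:57358691-57483527, plus strand) rose the most with injury among the 7 genes in both genotypes. WT mice measured 20.4, 30.7, 40.0 and 38.2 CPM at D0 and 91.6, 92.4, 97.5 and 67.3 CPM at D7. Trem2-/- mice measured 39.8, 32.2, 33.3 and 29.3 CPM at D0 and 61.9, 63.7, 49.6 and 65.0 CPM at D7. Every injured mouse exceeded every uninjured mouse, and every WT D7 mouse exceeded every Trem2-/- D7 mouse, the nearest pair being WT mouse 4 and knockout mouse 4. The mean rose 2.70-fold in WT (log2 fold change 1.43 ± 0.18 SE, adjusted p = 0.000473) and 1.78-fold in Trem2-/- (0.82 ± 0.18 SE, adjusted p = 0.00176). The knockout mean at D7 was 0.688 of the WT mean (-0.53 ± 0.18 SE, unadjusted p = 0.0116, adjusted p = 0.558).

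Cd68 (chr11:69664213-69666153, minus strand) had the smallest p of the 7 genes in the D7 genotype comparison. WT mice measured 81.1, 75.04, 96.6 and 95.3 CPM at D0 and 79.9, 97.2, 123 and 112 CPM at D7. Trem2-/- mice measured 85.5, 86.8, 83.0 and 86.7 CPM at D0 and 64.7, 66.7, 60.0 and 63.1 CPM at D7. The 4 knockout mice of each time point were close together, with a coefficient of variation of 2.04% at D0 and 4.44% at D7, and all 4 injured knockout mice were lower than all 12 others. Knockout Cd68 reads ran from 1122 to 1392 at D0 and from 756 to 1925 at D7, and counting error was not separated from this spread. Cd68 fell with injury in Trem2-/- (-0.42 ± 0.12 SE on the log2 scale, adjusted p = 0.00782), whereas the WT difference was 0.23 with an interval from -0.02 to 0.48. The fall in Trem2-/- was not called at a fold over 1.5, nor with the leukocyte score as a covariate (-0.0911, unadjusted p = 0.711), where the WT difference was called at 0.39 (unadjusted p = 0.0215). The injured knockout mean was 0.618 of the injured WT mean (-0.67 ± 0.12 SE, unadjusted p = 4.4e-05, adjusted p = 0.287).

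Reference promoter sequence was at hand for 3 of the 7 genes, namely Csf2ra and Cd68, which were lower in Trem2-/- mice at D7, and Csf1, which was not called. They are shown to let these promoters be read for GAGGAAG, the core that PU.1 is known to bind. Each is the RefSeq sequence on GRCm38.p6 from 250 bases before to 50 after the gene's start, written 5′ to 3′ on the gene's own strand, and capitals mark GAGGAAG on either strand.
Csf2ra, chr19:61228369-61228668, minus strand: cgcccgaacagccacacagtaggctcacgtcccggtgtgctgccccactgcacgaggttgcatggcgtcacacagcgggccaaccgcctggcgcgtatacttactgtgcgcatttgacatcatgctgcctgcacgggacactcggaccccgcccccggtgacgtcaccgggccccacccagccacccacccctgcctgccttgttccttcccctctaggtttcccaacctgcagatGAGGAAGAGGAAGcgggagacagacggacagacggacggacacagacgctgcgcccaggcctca
Cd68, chr11:69666121-69666420, minus strand: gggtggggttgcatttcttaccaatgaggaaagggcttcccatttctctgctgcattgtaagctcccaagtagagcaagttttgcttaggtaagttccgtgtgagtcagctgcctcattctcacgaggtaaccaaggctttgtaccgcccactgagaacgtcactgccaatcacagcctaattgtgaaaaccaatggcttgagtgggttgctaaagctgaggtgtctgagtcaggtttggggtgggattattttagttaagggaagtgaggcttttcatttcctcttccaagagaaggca
Csf1, chr3:107760420-107760719, minus strand: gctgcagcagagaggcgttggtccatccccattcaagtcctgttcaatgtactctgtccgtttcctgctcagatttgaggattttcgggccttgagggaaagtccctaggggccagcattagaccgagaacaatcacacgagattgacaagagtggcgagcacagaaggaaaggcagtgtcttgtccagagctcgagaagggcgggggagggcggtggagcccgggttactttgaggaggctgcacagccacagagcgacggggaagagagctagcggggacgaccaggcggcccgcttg
Csf2ra held the core 2 times, beginning 14 and 8 bases before the start and sharing 1 base, and the Cd68 and Csf1 windows held it 0 times. Among all 32851 promoters of 300 bases read in the same way, 13.6% held GAGGAAG on either strand. The shorter ETS core GGAA, which GAGGAAG contains, occurred 5 times in Csf2ra, 6 times in Cd68 and 4 times in Csf1, and 96.0% of all promoters held it. A match describes the letters in this window and says nothing about binding in these cells.

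The comparison of genotypes in injured joints asked whether these genes depended on Trem2 at D7. Following the study's rule, genes were called at an unadjusted p under 0.05 where the log2 fold change was also beyond 0.32 in either direction. The members were chosen with earlier results of these data known, and the study itself reports lower Csf1r and Adgre1 in Trem2-/- at D7. It also lists Ptprc, the reference of the ratios below, among the lower genes. Of the 7 members, 5 were called lower in Trem2-/- (Csf1r, Csf2ra, Spi1, Adgre1 and Cd68), where 4.53% of all tested genes were. The same 5 had every knockout mouse below every WT mouse, against 4.78% of all tested genes. Adjusted over all genes, their p-values lay between 0.287 and 0.615. In uninjured joints, 0 of the 7 were called by limma, against 2.15% of all genes, and 0 had an unadjusted p under 0.05; edgeR and voom on the recovered reads also called 0. Their log2 differences at D0 ran from -0.02 for Cd68 to 0.33 for Spi1, with 95% intervals that reached from -0.52 to 0.85.

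With injury in WT, 2 members were called higher (Adgre1 and Csf1r) and 3 lower (Csf1, Csf2ra and Spi1), where 19.3% of all genes were called higher and 18.2% lower. In Trem2-/-, 1 member was called higher (Adgre1) and 4 lower (Cd68, Csf1, Csf2ra and Spi1), where 26.5% of all genes were called higher and 27.9% lower. Since 37.4% of all genes in WT and 54.5% in Trem2-/- were called in either direction, the counts alone say little about the 7 genes. The injury response itself was compared by the interaction of genotype and injury, in which 5 members were called lower against 5.02% of all genes. The interaction was -0.77 ± 0.28 SE for Csf1r, -0.95 ± 0.25 for Csf2ra, -0.94 ± 0.35 for Spi1, -0.62 ± 0.26 for Adgre1 and -0.65 ± 0.17 for Cd68 on the log2 scale. Unadjusted p ranged from 0.00143 for Cd68 to 0.0309 for Adgre1, and adjusted p from 0.579 to 0.580. With the leukocyte score as a covariate, 4 of the 5 calls were lost: Spi1 went to -0.0148 (unadjusted p = 0.916), Csf1r to -0.32 (unadjusted p = 0.286), Adgre1 to -0.33 (unadjusted p = 0.283) and Csf2ra to -0.43 (unadjusted p = 0.0637), while Cd68 stayed called at -0.48 (unadjusted p = 0.0255). When single mice were left out, the Adgre1 interaction had p at or above 0.05 without WT D0 mouse 1 (-0.42, unadjusted p = 0.0590) and without any of 5 other single mice. For the ligands the interaction was -0.10 for Csf1 (95% interval -0.87 to 0.68) and 0.06 for Il34 (-0.67 to 0.80).

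**Figure D3:**
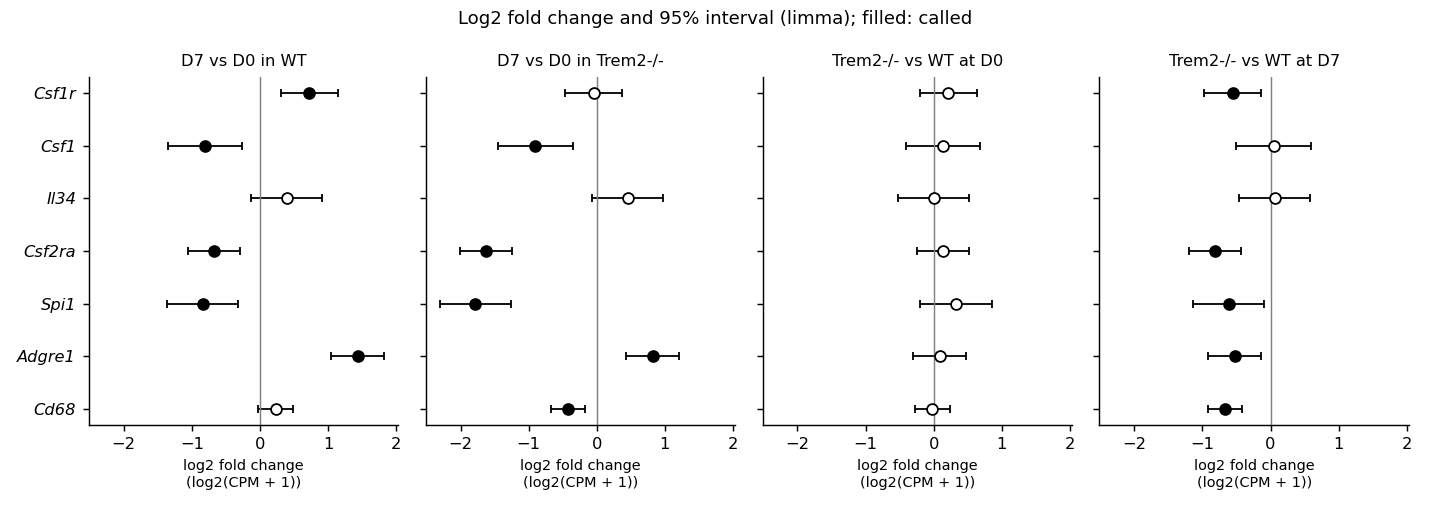
Log2 fold change of each gene (horizontal axis) with its 95% interval in the 4 comparisons (panels), from limma on log2(CPM + 1). Filled points were called (unadjusted p under 0.05 and log2 fold change beyond 0.32); in the D7 genotype panel 5 points lie between -0.82 and -0.53 and the ligands Csf1 and Il34 lie at 0.04 and 0.06.

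These are values of mixed cells, in which fewer cells of a type and less RNA per cell cannot be told apart. Markers of other cells moved in the same comparisons. All 6 pan-leukocyte genes, which include Ptprc (CD45), were called lower in Trem2-/- at D7 (median log2 fold change -0.69, all genes 0.01), where 4.53% of all genes were. The 6 were also called lower with injury in each genotype (-0.79 in WT and -1.82 in Trem2-/-), where 18.2% and 27.9% of all genes were. Their summed level was 2818 to 5550 CPM at WT D0, 1587 to 3486 at WT D7, 3536 to 6129 at Trem2-/- D0 and 1243 to 1588 at Trem2-/- D7. Ptprc measured 236, 237, 439.8 and 308 CPM in WT D7 mice and 140.1, 168, 206 and 178 CPM in Trem2-/- D7 mice, a log2 difference of -0.78 ± 0.25 SE. Of the 8 B cell genes, 7 were called lower in Trem2-/- at D7, where 4.53% of all genes were. The list median was -0.90, with Rag1 and Cd79b lower by the most. The sums of all 8 ran from 104 to 174 CPM in WT and from 98.8 to 111 CPM in Trem2-/-. These sums include Ebf1, named after its values were seen, which was not called (mean 60.2 CPM in WT D7 and 66.9 CPM in Trem2-/- D7). The 12 neutrophil genes had a median of -0.51 at D7 between genotypes with 0 called, where 5.72% of all genes were. Their sums overlapped, from 4931 to 14653 CPM in WT and from 4572 to 7549 CPM in Trem2-/-. With injury all 12 were called lower in both genotypes, where 18.2% of all genes were in WT and 27.9% in Trem2-/-. The 10 fibroblast genes summed to 11617.5 to 56074 CPM at WT D0 and 85589 to 123696 CPM at WT D7. All 6 chondrocyte genes were called higher in both genotypes, where 19.3% of all genes were in WT and 26.5% in Trem2-/-. No marker of these lists was at 0 in any library. The level of each member relative to Ptprc was therefore measured in every mouse, and the leukocyte score was added to the fit; the part of the other cell types was not tested.

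Relative to Ptprc, the change of each member is its own log2 change less that of Ptprc. The order of the members within a comparison is therefore the same as in CPM. At D0 the log2 ratio of Csf1r to Ptprc was -2.34, -2.24, -1.97 and -1.87 in WT mice 1 to 4 and -2.26, -2.48, -2.22 and -1.87 in Trem2-/- mice. At D7 it was -0.21, -0.27, -1.10 and -0.95 in WT and -0.08, -0.23, -0.77 and -0.56 in Trem2-/-. Every injured mouse was above every uninjured mouse, and the genotypes overlapped at both times. The rise with injury was 1.47 in WT and 1.80 in Trem2-/- on the log2 scale (exact permutation p = 0.0286 in each, the smallest possible). Adgre1 to Ptprc rose by 2.18 in WT and 2.66 in Trem2-/-, and Cd68 to Ptprc by 0.98 and 1.42, both without overlap (exact permutation p = 0.0286 in all 4 comparisons). In WT, 12.1% of all genes rose relative to Ptprc without overlap, whereas in Trem2-/- 89.3% did, so the separation in the knockout is common to most of the table. Spi1 and Csf2ra did not separate from Ptprc with injury: their ratios differed by -0.09 and 0.08 in WT and by 0.06 and 0.22 in Trem2-/-, with overlapping groups (exact permutation p from 0.314 to 0.886). The interval of the Spi1 difference ran from -0.30 to 0.26 in WT and from -0.11 to 0.41 in Trem2-/-, at 97.1% coverage. That of Csf2ra was wider, from -0.32 to 0.40 in WT and from -0.33 to 0.88 in Trem2-/-.

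Between the genotypes at D7, none of the 5 myeloid members differed from Ptprc beyond the spread of the mice. The log2 ratio to Ptprc was higher in Trem2-/- by 0.23 for Csf1r, 0.26 for Adgre1, 0.11 for Cd68 and 0.17 for Spi1 and lower by 0.04 for Csf2ra (exact permutation p = 0.429, 0.314, 0.543, 0.143 and 0.8286), and all groups overlapped. For comparison, 55.5% of all genes were separated between the genotypes on this ratio at D7, 7312 of them higher in Trem2-/- and 1 lower. The intervals were wide, for example -0.57 to 1.03 for Csf1r and -0.68 to 1.01 for Adgre1, so that a change of either sign lay within them. Csf1 and Il34 belonged to the separated majority, higher by 0.82 and 0.84 (exact permutation p = 0.0286 each). With the leukocyte score as a covariate, the D7 genotype difference was still called for Csf2ra (-0.45, unadjusted p = 0.0111) and Cd68 (-0.54, unadjusted p = 0.00123). It was no longer called for Csf1r (-0.23, unadjusted p = 0.272) and Adgre1 (-0.32, unadjusted p = 0.149), and for Spi1 it turned to 0.049 (unadjusted p = 0.626). In that fit Csf1r rose with injury in both genotypes, by 1.13 in WT (unadjusted p = 0.000150) and 0.82 in Trem2-/- (unadjusted p = 0.0382). The covariate differs between the groups, so group and leukocyte level are only partly separable in these 16 libraries.

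**Figure D4:**
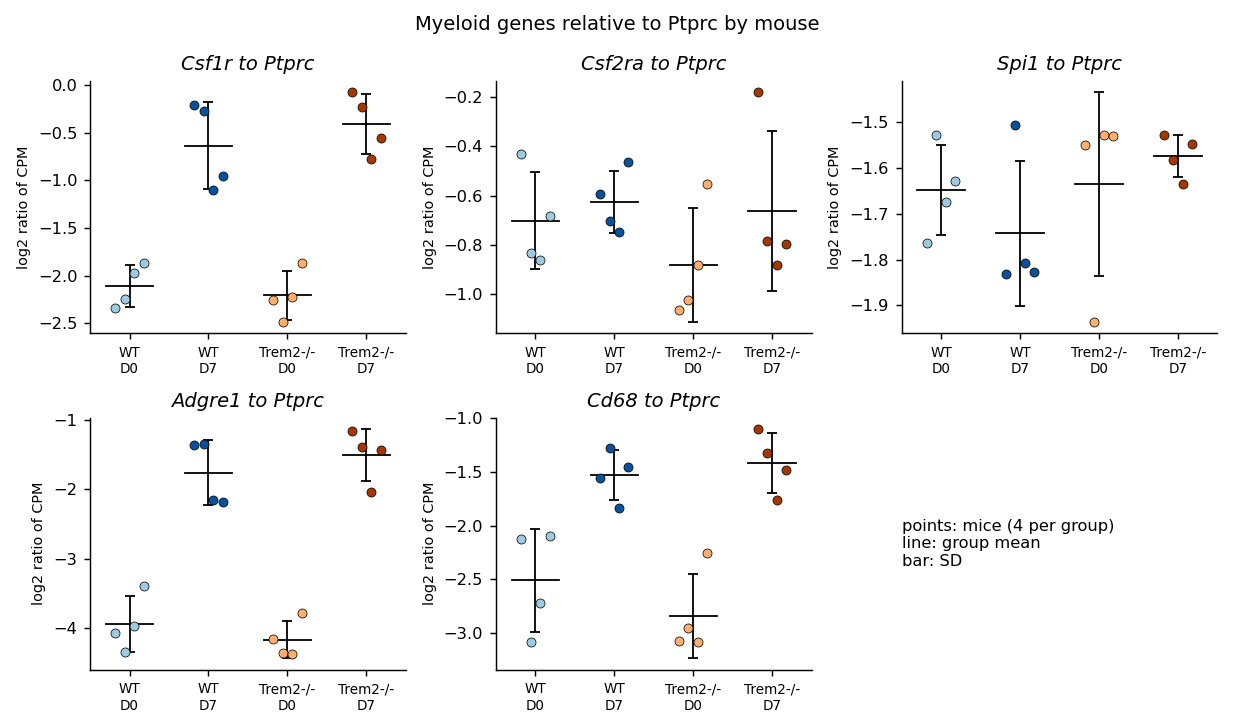
Log2 ratio of CPM to Ptprc (vertical axis) for 5 genes in every mouse of the 4 groups, with the group mean as a line and the SD as a bar. Csf1r, Adgre1 and Cd68 are higher at D7 than at D0 without overlap in both genotypes, Spi1 and Csf2ra overlap between D0 and D7, and WT and Trem2-/- mice overlap at D7 for all 5.

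After injury the ratio of Il34 to Csf1 was higher, with Csf1 called lower and Il34 called in neither genotype. The share of all genes with separated groups was not computed for ratios to Csf1 or Csf1r. In mice 1 to 4 the log2 ratio of Il34 to Csf1 was -4.25, -4.91, -5.27 and -4.42 at WT D0 and -2.99, -3.39, -3.87 and -3.80 at WT D7. In Trem2-/- it was -5.57, -4.33, -4.83 and -4.68 at D0 and -3.17, -3.59, -3.45 and -3.75 at D7. All injured mice were above all uninjured mice, by 1.202 in WT and 1.36 in Trem2-/- (exact permutation p = 0.0286 each), and the genotypes overlapped at D7 (difference 0.02, interval -0.76 to 0.70). Csf1 to Csf1r fell by 1.53 in WT without overlap (exact permutation p = 0.0286), and in Trem2-/- it differed by -0.86 with overlap at 1 pair of mice (exact permutation p = 0.0571). Il34 to Csf1r was -3.59, -3.66, -3.69 and -3.18 in WT D7 mice and -2.98, -3.04, -2.85 and -2.78 in Trem2-/- D7 mice, higher in the knockout by 0.62 without overlap (exact permutation p = 0.0286), while at D0 it overlapped (difference -0.21). In all, 40 such ratio comparisons were made (10 ratios in 4 comparisons) and 14 had separated groups. Each of the 14 reached the smallest p that 4 against 4 allows, and adjusted over the 40 by the Benjamini-Hochberg method the exact permutation p was 0.0816.

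**Figure D5:**
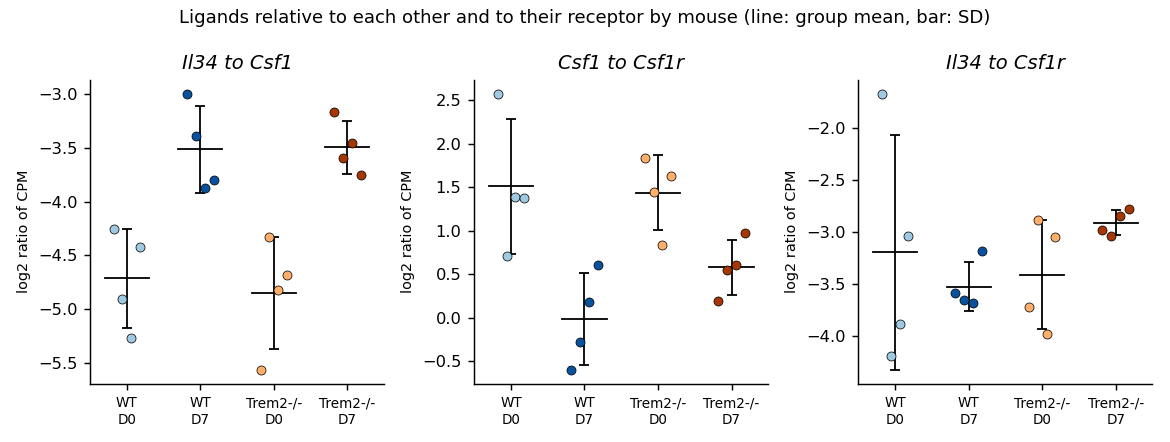
Log2 ratio of CPM (vertical axis) of Il34 to Csf1, Csf1 to Csf1r and Il34 to Csf1r in every mouse of the 4 groups, with the group mean as a line and the SD as a bar. Il34 to Csf1 is higher at D7 than at D0 in both genotypes without overlap, and Il34 to Csf1r is higher in Trem2-/- than in WT at D7.

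Among 13 tested receptors and ligands of the colony-stimulating factor families, which include 4 of the members, 4 were called lower and 1 higher in Trem2-/- at D7 (median 0.04), where 4.53% and 1.18% of all genes were. Beside Csf1r and Csf2ra these were Csf3r, the G-CSF receptor of neutrophils (-0.74), and Flt3, the receptor of dendritic cell precursors (-0.72), and the gene called higher was Csf3, which encodes G-CSF (1.13). With injury, 4 were lower and 2 higher in WT, where 18.2% and 19.3% of all genes were, and 4 lower and 1 higher in Trem2-/-, where 27.9% and 26.5% were, so these counts were near or below the shares of all genes except for the lower calls in WT. Sdc1, a heparan sulfate proteoglycan that binds IL-34, rose in both genotypes (1.12 and 1.74) and Csf3r fell in both (-0.90 and -2.09).

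Of 27 tested genes that act downstream of CSF1R, 1 was called higher and 0 lower in Trem2-/- at D0. Of all genes, 0.782% were called higher and 1.37% lower there. At D7, 8 of the 27 were called lower and 0 higher (median -0.11, all genes 0.01), where 4.53% of all genes were lower and 1.18% higher. Among the 8 were Fgr, a Src-family kinase of myeloid cells (-0.84), and Pik3cg, Ptpn6, Vav1, Inpp5d, Plcg2 and Tyrobp between -0.81 and -0.58. Those after Fgr, other than Tyrobp, are named here after their values were seen. Akt1, a kinase that carries this signal in many cell types, differed by 0.01. With injury 11 genes were lower and 3 higher in WT, where 18.2% and 19.3% of all genes were, and 15 lower and 4 higher in Trem2-/-, where 27.9% and 26.5% were. Src and Dab2 rose in both genotypes (Src by 1.19 in WT and 1.88 in Trem2-/-, Dab2 by 1.16 and 1.57), while Ptpn6 fell in both (-1.11 and -2.20).

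Spi1 was 1 of 4 called lower among 20 macrophage transcription factor genes at D7 between genotypes, where 4.53% of all genes were. The others were Spib, a close relative that is active in B cells and plasmacytoid dendritic cells (-1.19), Irf5 (-0.68) and Zeb2 (-0.48). In this list 0 were called higher, where 1.18% of all genes were, and the median was -0.14. With injury Maf, a factor of resident macrophages, rose in both genotypes (0.77 in WT and 1.45 in Trem2-/-) while Spib fell in both (-1.40 and -2.26).

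Of 22 tested macrophage marker genes, none of them a member, 14 were called higher and 0 lower with injury in WT (median 0.93). Of all genes, 19.3% were called higher and 18.2% lower there. In Trem2-/- 10 were called higher and 4 lower (median 0.29), where 26.5% of all genes were higher and 27.9% lower. Fcrls and Ms4a7, surface proteins of macrophages, rose most (2.95 and 2.90 in WT, 3.27 and 3.04 in Trem2-/-), and Cd14 and Sirpa were lower in Trem2-/- (-1.10 and -0.68). Between the genotypes at D7 2 of the 22 were called, both lower, where 4.53% of all genes were. They were Cx3cr1, the fractalkine receptor of monocytes and lining macrophages (-0.93), and Cd163, the haemoglobin scavenger receptor (-0.80), with a list median of -0.34. The summed level of the 22 genes overlapped, from 1592.5 to 2461 CPM in WT D7 and from 1580 to 1833 CPM in Trem2-/- D7. Of the 7 osteoclast genes, cells that also need CSF1R, 0 were called between the genotypes at D7, where 5.72% of all genes were. At D0, 2 of the 7 were called lower in Trem2-/- (Acp5 and Atp6v0d2, at -0.64 and -0.92), where 1.37% of all genes were. With injury 4 osteoclast genes were called higher in WT, where 19.3% of all genes were, and 6 in Trem2-/-, where 26.5% were. In Trem2-/- 1 was called lower (Calcr, the calcitonin receptor, -0.84), where 27.9% of all genes were. Calcr is near the counting floor, at 0.083 to 0.392 CPM in Trem2-/- D7 mice. Ctsk, the collagen-degrading cathepsin K, rose most in both genotypes (1.44 and 2.78). In the interaction, where the members were called lower, 4 osteoclast genes were called higher (Ctsk, Acp5, Atp6v0d2 and Dcstamp, between 0.51 and 1.34), where 2.77% of all genes were. Dcstamp is named after its values were seen and is low, with group means of 0.625 to 1.21 CPM.

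Genes whose levels ran closest to each member over the 16 libraries were found by Pearson's r on log2(CPM + 1) among the 10552 genes that averaged 5 CPM or more. The r values describe libraries that share groups and cell makeup, and the r after removing group means stands second. Csf1r ran closest to Ctss, a cathepsin of antigen-presenting cells (0.92 and 0.92), Cx3cr1 (0.87 and 0.86) and Cndp2 (0.86 and 0.84), and Adgre1 to Dpep2 (0.97 and 0.84), Mrc1, the mannose receptor (0.94 and 0.63), and Abcc3 (0.94 and 0.56). Among the genes closest to Spi1 were Rac2 and Itgal (0.99 each, and 0.98 each within groups), which are leukocyte genes, and Csf2ra to Dennd1c, Fmnl1 and Arhgap25 (0.99, 0.98 and 0.98, and 0.95, 0.92 and 0.91 within groups). Rac2 is also part of the leukocyte score. Cd68 had the weakest partners, Nceh1 (0.84 and 0.73), Slc43a2 (0.76 and 0.49) and Card19 (0.75 and 0.77). The ligands ran with other genes: Csf1 with Gabpb1, Ube2d3 and Dnajb6 (0.95, 0.94 and 0.93), and Il34 with Ccser2, Mpdz and Acvr2a (0.97, 0.95 and 0.95). Among the members themselves, Spi1 and Csf2ra ran with Ptprc (0.99 and 0.96) and Csf1r with Adgre1 (0.77, and 0.83 within groups), whereas Csf1r and Spi1 were at -0.01 over all libraries and 0.67 within groups.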

How the data were processed

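Bulk RNA-seq of knee joint cells comprised 16 libraries, 4 for each combination of genotype (WT or Trem2-/-) and time (D0 or D7). The deposited signal values are CPM from a pipeline of bcl2fastq, STAR (mm10), featureCounts and TMM scaling in edgeR, run by the authors. Their versions, annotation, strand setting and rule for removing low genes are not given in the sources used here. In 100% of values the CPM were whole multiples of 1 read (tolerance 0.1 read), so reads were recovered. Fcgr1, listed 2 times, was counted once. Replicates differed by more than sampling noise (chi-square per degree of freedom at least 10.6).

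Values were compared as log2(CPM + 1) with limma 3.58.1 (eBayes with trend, R 4.3.3) over the 13173 genes that reached 1 CPM in 4 or more libraries, the 4 groups forming one factor. A gene was called at unadjusted p under 0.05 and log2 fold change beyond 0.32, and fold changes of low genes are understated on this scale. Adjusted p is Benjamini-Hochberg over all tested genes. Ratios were compared by exact two-sided permutation over 70 assignments (smallest p 0.0286), with shift intervals from the same test. For comparison, edgeR 4.0.16 quasi-likelihood on recovered reads called 884 genes between genotypes at D7 (limma 753), 466 at D0 (283), 5025 with injury in WT (4933), 7276 in Trem2-/- (7173) and 1221 for the interaction (1026). Positions and exon lengths are from GENCODE M21 (13428 of 13733 symbols matched).

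The members and gene lists were chosen with earlier results of these data known. Named genes are the members, Trem2, Tyrobp and Ptprc, the 3 genes with the highest r to each member, and per list and comparison at most the 2 called genes per direction with the largest fold change, with exceptions stated; 1 gene that this rule names is not reported here. Alternatives were pseudocounts of 0.1 and 5, no filter, median-of-ratios rescaling, quantile normalization, a fit without the other 2 groups, no trend, a replicate block, each replicate left out, edgeR and voom on reads, fold over 1.5, a leukocyte score as covariate and, for ratios, the mean of the pan-leukocyte genes as denominator. Counting floors cover counting error only.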

Additional observations from a re-analysis of the deposited data

Results flagged for a closer look

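Single mice stood apart from the other 3 of their group in 6 of 68 groups of 4 values examined, by a gap whose share of the group's range passed Dixon's 95% limit, and about 1 in 20 groups (3.4 of 68) would do so by chance. WT D7 mouse 4 was low for Csf1r (158.6 CPM against 196 to 204, gap 0.835 of the range) and for Adgre1 (67.3 CPM against 91.6 to 97.5, gap 0.832). On the log2 ratio to Ptprc, Trem2-/- D7 mouse 1 was high for Csf2ra (-0.18 against -0.88 to -0.78, gap 0.858) and WT D7 mouse 2 was high for Spi1 (-1.51 against -1.83 to -1.81, gap 0.926). Trem2-/- D0 mouse 2 was low for Spi1 (-1.94 against -1.55 to -1.53, gap 0.947), and Trem2-/- D0 mouse 4 was high for Cd68 (-2.26 against -3.08 to -2.95, gap 0.842).

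The injury response differed between the genotypes in the interaction test for Csf1r (-0.77 on the log2 scale, unadjusted p = 0.0148), Csf2ra (-0.95, unadjusted p = 0.00189), Spi1 (-0.94, unadjusted p = 0.0160), Adgre1 (-0.62, unadjusted p = 0.0309) and Cd68 (-0.65, unadjusted p = 0.00143), all from limma. Adjusted p-values ran from 0.579 to 0.580. The 6 pan-leukocyte genes were called lower in the same interaction (median -0.98), where 5.02% of all genes were. With their mean log2 level as a covariate, the interaction was no longer called for Csf1r (-0.32), Csf2ra (-0.43), Spi1 (-0.0148) and Adgre1 (-0.33) and was still called for Cd68 (-0.48, unadjusted p = 0.0255).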

How the results depend on the processing

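Members called numbered 5 between genotypes at D7, 0 at D0, 5 with injury in WT, 5 in Trem2-/- and 5 for the interaction. A fold over 1.5 left 3 at D7, and the leukocyte score as covariate gave 2 at D7, 3 and 3 with injury (2 of the 5 in each genotype, plus Cd68 newly called in WT and Csf1r in Trem2-/-) and 1 for the interaction; the covariate takes up variance shared with the groups. Leaving out 1 replicate gave 4 to 5 at D7 and for the interaction, the losses being Spi1 and Adgre1. The replicate block gave 5, 0, 5, 5 and 4 members, Adgre1 leaving the interaction (-0.62, unadjusted p = 0.0501). Replicate numbers are only numbers: 11 of 24 same-number pairs had deviations correlated over 0.1 (-0.509 to 0.406), and 7 of 16 libraries were closest to their own number. Of 435 repeats of called values, 410 kept sign and call, 24 lost the call and 1 changed sign.

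Signs changed under the covariate for Spi1 (0.049) and Il34 (-0.34) at D7, Csf2ra at D0 (-0.012), Il34 with injury (-0.12 in WT, -0.63 in Trem2-/-), Csf1r in Trem2-/- (0.82, unadjusted p = 0.0382) and the interactions of Csf1 (0.17) and Il34 (-0.50). Il34 at D0 turned to -0.014 with a pseudocount of 5 and -0.087 with edgeR. Against the pan-leukocyte mean, the WT injury ratios turned to 0.087 for Csf1 and 0.053 for Spi1; the cause was not tested. Leaving out 1 replicate changed the sign of uncalled differences of Csf1 at D7 (-0.11 to 0.17) and at D0 (-0.056 to 0.28), at D0 of Csf1r (-0.022 to 0.38), Adgre1 (-0.11 to 0.21), Il34 (-0.25 to 0.28) and Cd68 (-0.085 to 0.035), of Csf1r with injury in Trem2-/- (-0.12 to 0.017), and of the interactions of Il34 (-0.21 to 0.32) and Csf1 (-0.25 to 0.10). The same held for uncalled ratios: to Ptprc at D0 for Csf1 (-0.49 to 0.10), Il34 (-0.69 to 0.12) and Spi1 (-0.026 to 0.11), Csf1 with injury in WT (-0.37 to 0.22), Csf2ra at D7 (-0.20 to 0.038) and Spi1 with injury in Trem2-/- (-0.038 to 0.10). It held for Il34 to Csf1 at D7 (-0.10 to 0.19) and D0 (-0.32 to 0.10), Csf1 to Csf1r at D0 (-0.34 to 0.28), and Il34 to Csf1r at D0 (-0.55 to 0.30) and with injury in WT (-0.66 to 0.18).

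Counts over all genes moved by over 1.5 times as follows. Called genes at D7 went from 753 to 1366 with only the groups compared, 480 without WT D7 mouse 3 and 340 at fold over 1.5. At D0 they went from 283 to 164 with a pseudocount of 5, 149 with only the groups compared, 466 with edgeR, 131 at fold over 1.5 and 107 to 1231 without 1 mouse, the highest without WT D0 mouse 2. With injury in WT they went from 4933 to 2985 at fold over 1.5 and 2193 with the covariate, and in Trem2-/- from 7173 to 2173 with the covariate. For the interaction they went from 1026 to 635 at fold over 1.5 and 609 to 2236 without 1 mouse. Each member had 134 or more reads in each library. How far depth or the spread between 4 mice limits each comparison was not tested.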
